A study of Mus musculus with 108 samples.

Results

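Expression of 10 transcription factor genes that mark cell lineages of the developing cerebellum was followed in RNA-seq counts of wild-type (WT) and Cul3+/- mouse brain. The genes are Atoh1, Barhl1, Neurod1, Zic1, Zic2, Ptf1a, Pax2, Lhx1, En1 and En2. They were chosen by gene symbol through the Ensembl identifiers of the count table, and all 10 were found among its 53465 genes. Ribosome-depleted total RNA from the cerebellum (CB), the cerebral cortex (CX) and the hippocampus (HIP) had been sequenced in embryos (E17.5), on postnatal day 7 (P7) and the adult period (P35 in the sample titles). The mutant mice are heterozygous for a frame-shifting 1 bp insertion in exon 6 of Cul3, the gene of the E3 ubiquitin ligase scaffold Cullin 3, and descend from 1 founder bred to WT C57BL/6N mice. The controls are WT mice with no introduced allele, and the labels give the strain background of both genotypes as C56Bl/6N, name no treatment, and do not give the sex of the mice. The groups held 6 WT and 6 Cul3+/- mice at E17.5 and P7 and 5 of each in adults, since 2 adult mice to which the labels and the study's own sample sheet gave opposite genotypes were left out. This left 102 of the 108 libraries, each from 1 region of 1 mouse.

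The cerebellum forms from the hindbrain next to the isthmic organizer, a signalling centre where the engrailed genes En1 and En2 and the paired box gene Pax2 are switched on early. Its glutamatergic neurons come from the rhombic lip, where the basic helix-loop-helix (bHLH) factor Atoh1 defines the precursors, and its GABAergic neurons come from the ventricular zone, where the bHLH factor Ptf1a does so. Granule cell precursors divide in the external granule layer after birth, then leave the cell cycle, switch on factors such as Neurod1 and migrate inwards. Zic1 and Zic2 are zinc finger factors of granule cells and of several forebrain cell types, Barhl1 is a homeobox gene of the rhombic lip lineage, Lhx1 is a LIM homeobox gene of Purkinje cells, and Pax2 also marks precursors of GABAergic interneurons. Because whole tissue was sequenced, fewer cells of a type and less RNA per cell cannot be told apart in any value below.

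The library totals ran from 15126114 to 44411282 expected counts. Levels are given as CPM, counts scaled to a common library size after TMM normalization. Cul3 was lower in Cul3+/- mice in all 9 combinations of period and region, with log2 fold changes from −0.99 to −0.74. The 6 Purkinje cell markers were above 0 in every CB library. In each CX and HIP group 4 of the 6 were also above 0 in every library, so detection alone does not identify the tissue. In WT mice the median of their sum was 811, 1999 and 8885 CPM in CB at E17.5, P7 and P35. It was 331, 328 and 1299 CPM in CX and 101, 277 and 840 CPM in HIP. Some libraries stood apart from the others of their group. In adult CB, WT replicate 3 held 59.0 CPM of Lhx1 where the other 9 libraries held 17.9 to 29.8 CPM, and it was also the highest for Pax2 and Barhl1 and the lowest for Zic1 and Neurod1. Its Cul3 level was 168 CPM, the lowest of the WT group and above all Cul3+/- libraries, and its granule neuron marker sum of 6001 CPM lay above the 4775 to 5276 CPM of the others. In E17.5 HIP, WT replicate 6 was the highest for Zic1, Zic2, Zic4, Zic5 and Lhx1. At E17.5, the mouse names begin with S2, S3 or S4, and the 4 CB libraries of S3 mice, 2 of each genotype, differed from the rest. Without the S3 mice, an omission chosen after seeing the data, the calls of the 10 genes between the regions at E17.5, between the periods in CB and between the genotypes in E17.5 CB stayed as given below, and some of the values that moved are given where they arise.

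In the mouse genome build GRCm38, the rhombic lip factors map as follows. Atoh1 lies at chr6:64729125-64731245 on the plus strand, Barhl1 at chr2:28907679-28916668 on the minus strand, and Neurod1 at chr2:79452521-79456751 on the minus strand. Zic1 lies at chr9:91358058-91365810 on the minus strand and Zic2 at chr14:122475435-122479852 on the plus strand. Of the GABAergic factors, Ptf1a lies at chr2:19445663-19447501 on the plus strand, Pax2 at chr19:44756045-44837871 on the plus strand and Lhx1 at chr11:84518284-84525535 on the minus strand. En1 lies at chr1:120602418-120607992 and En2 at chr5:28165694-28172166, both on the plus strand. All 10 are annotated as protein coding, and the counts are sums over whole genes. The first part of Zic1 overlaps Zic4, which is transcribed from the opposite strand at chr9:91362413-91389348. The library kit keeps strand, but the strand setting of the counting is not given in the sources used here, so reads from the overlap may have been counted for either gene.

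The promoters of Atoh1, Barhl1 and Ptf1a are shown because these were the genes with the deepest fall in CB from P7 to adult mice. Each is the 250 bases before a RefSeq start in GRCm38.p6, 5′ to 3′ on the strand of the gene, with the letters CANNTG, the core of the E-box to which bHLH factors bind, in capitals. They lie at chr6:64728875-64729124 (plus strand), chr2:28916669-28916918 (minus strand) and chr2:19445413-19445662 (plus strand).
Atoh1: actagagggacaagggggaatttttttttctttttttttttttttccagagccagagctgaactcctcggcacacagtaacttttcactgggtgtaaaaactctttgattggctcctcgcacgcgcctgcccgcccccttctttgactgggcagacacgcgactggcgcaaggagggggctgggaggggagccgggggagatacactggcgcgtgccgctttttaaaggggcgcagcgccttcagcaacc
Barhl1: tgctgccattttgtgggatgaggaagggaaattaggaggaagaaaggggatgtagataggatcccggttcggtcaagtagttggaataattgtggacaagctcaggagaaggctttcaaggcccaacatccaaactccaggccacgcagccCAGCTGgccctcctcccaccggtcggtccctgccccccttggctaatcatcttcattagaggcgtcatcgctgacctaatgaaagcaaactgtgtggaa
Ptf1a: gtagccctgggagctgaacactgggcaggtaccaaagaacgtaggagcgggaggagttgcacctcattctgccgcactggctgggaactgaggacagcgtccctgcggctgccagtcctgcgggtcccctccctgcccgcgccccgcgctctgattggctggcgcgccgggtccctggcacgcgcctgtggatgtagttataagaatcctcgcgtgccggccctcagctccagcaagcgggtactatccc
The Barhl1 window shown, which adjoins the gene as mapped above, holds a single match, CAGCTG, beginning 99 bases before the start. The Atoh1 and Ptf1a windows hold none. Barhl1 has another window that is not shown, at chr2:28912496-28912745, with 1 match beginning 15 bases before its start. CANNTG was searched on both strands, which read it alike. It occurs in 66.2% of the 32851 promoter windows of 250 bases searched and in windows of 5 of the 8 member genes that had one (7 of 11 windows). The presence of these letters is therefore common, and nothing is read from it about binding.

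**Figure D1:**
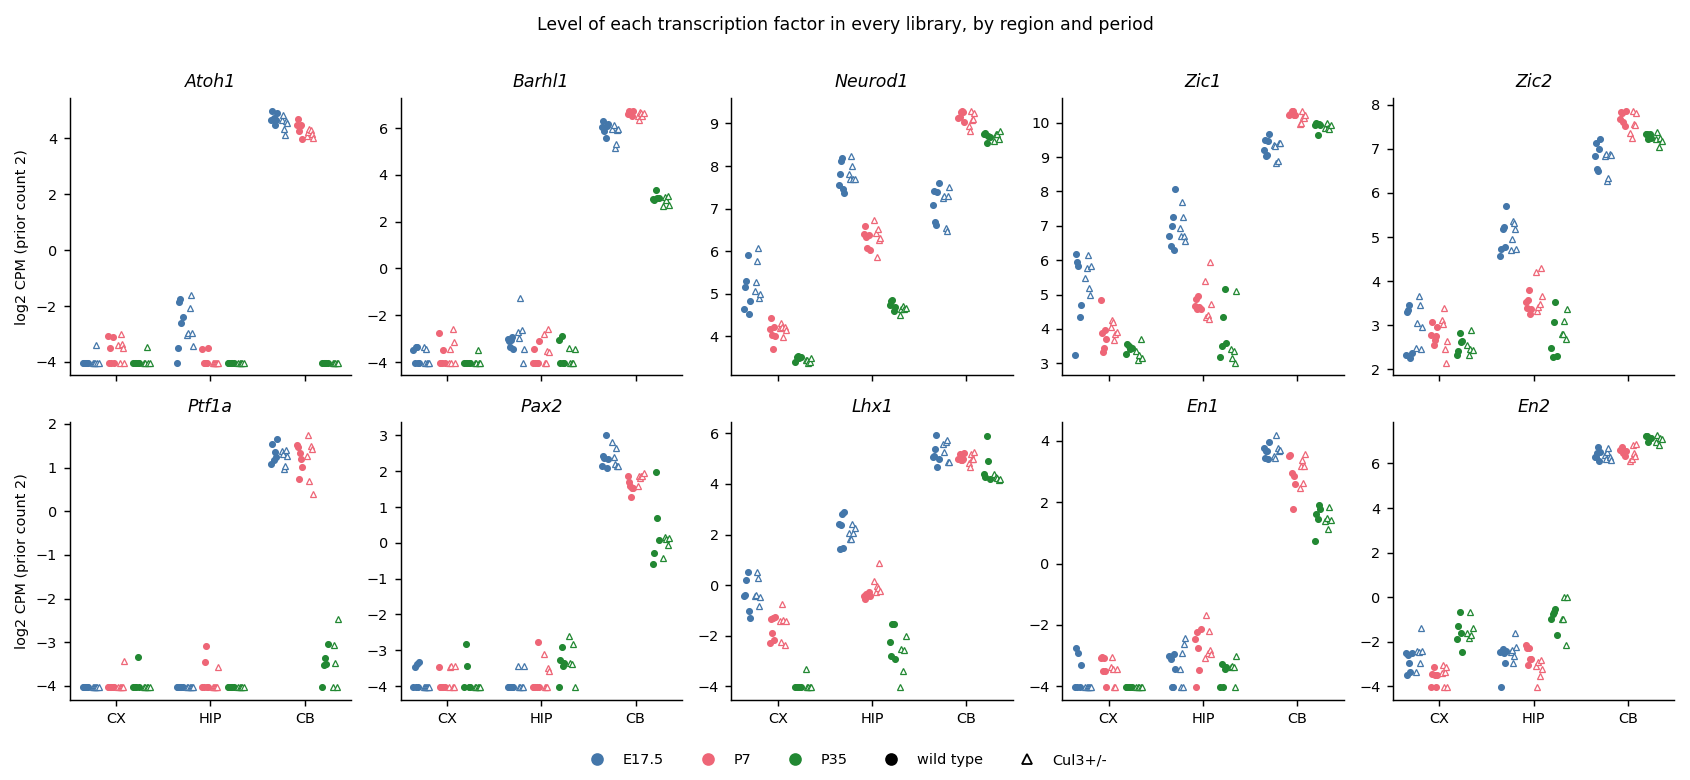
Level of each gene in every library used, as log2 CPM with a prior count of 2 (vertical axes, which differ between panels), by region (horizontal axis), period (colour) and genotype (filled circles, WT, and open triangles, Cul3+/-). The CB libraries lie above those of CX and HIP for all 10 genes at P7, the adult CB libraries of Atoh1 are at the bottom of its panel with 0 counts, and the E17.5 HIP libraries of Neurod1 reach above its E17.5 CB libraries.

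Among the 10 genes in WT CB, Zic1 had the highest mean at every period when levels were set per kilobase of exon. At E17.5 its mean was 114 ± 20.5 CPM per kb (SD, n = 6), followed by Neurod1 with 53.0 ± 14.3 CPM per kb and Zic2 with 41.5 ± 8.56 CPM per kb. Zic1 did not overlap Neurod1 at that age, whereas Neurod1 and Zic2 overlapped. The order went on with En2, Barhl1, Atoh1 and Lhx1, neighbours that each overlapped the next, and then En1, Ptf1a and Pax2, the last at 0.986 ± 0.255 CPM per kb. At P7, Zic1 (217 ± 8.58 CPM per kb) and Neurod1 (214 ± 15.8 CPM per kb) overlapped and both lay above Zic2 (73.3 ± 7.08 CPM per kb). En2 and Barhl1 came next and overlapped each other, and Ptf1a and Pax2 again ended the order. In adult CB (n = 5), the first 4 were Zic1, Neurod1, Zic2 and En2 (168 ± 15.4, 151 ± 9.36, 54.5 ± 2.13 and 40.2 ± 2.86 CPM per kb). Of these, Zic1 and Neurod1 overlapped again. Lhx1 ranked after En2 with 7.22 ± 4.22 CPM per kb, and Ptf1a and Atoh1 were at or near 0.

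To learn how far each gene separates CB from the forebrain regions, CB was compared with CX and with HIP in WT mice, with mouse as a block. A gene was called at an adjusted p of 0.1 or less (edgeR's quasi-likelihood test, Benjamini-Hochberg adjustment over all genes tested) and at least a 2-fold difference. Against CX, all 10 genes were higher in CB at E17.5, where 13.4% of all genes tested were called higher and 5.82% lower, and all 10 at P7, where 14.7% were called higher and 18.3% lower. In adults the 8 genes that could be tested were higher (11.6% of all genes higher, 15.8% lower). Against HIP, 9 of 10 genes were higher in CB at E17.5 (8.64% of all genes higher, 5.83% lower), all 10 at P7 (12% higher, 15% lower) and the 8 tested in adults (12.3% higher, 15.3% lower). Atoh1 and Ptf1a did not pass the low-count filter in adults. The genes are named for their role in CB, and several passed the filter only through their CB libraries, so these counts describe the region and add no test of the choice of genes.

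Atoh1 was all but confined to CB before adulthood. In E17.5 WT CB it ran from 22.1 to 31.9 CPM with a median of 26 CPM, and no read was counted in the 6 CX libraries, which makes CB at least 1617-fold higher with 3 counts over the group as the floor. HIP held 18 counts in all at E17.5, at most 0.237 CPM in a library, and CB was 237-fold higher (95% counting interval 150.0 to 401). These intervals and floors cover counting error only. At P7 the CB libraries ran from 15.7 to 25.8 CPM (median 22 CPM), against 5 counts in CX and 2 counts in HIP. The ratio to CX was 903 (95% interval 387 to 2782). All CB libraries lay above all forebrain libraries at both ages.

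Barhl1 showed the same contrast at a higher level and kept it in adults. Its WT CB libraries ran from 47.1 to 78.4 CPM at E17.5 (median 67.2 CPM) and from 92.4 to 108 CPM at P7 (median 102.7 CPM). In the adult CB it was at 7.68, 7.53, 10.2, 8.07 and 8.00 CPM. The CX groups held 3, 4 and 0 counts at the 3 periods, so that adult CB was at least 443-fold higher than adult CX, and the P7 ratio was 5352 (95% interval 2090 to 19646). No CB library overlapped a forebrain library.

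Neurod1, which drives the differentiation of granule neurons in CB and of dentate granule and other glutamatergic neurons in the forebrain, was the exception among the 10. In E17.5 WT mice it ran from 98.0 to 194 CPM in CB (median 152 CPM), from 164 to 290 CPM in HIP (median 207 CPM) and from 22.9 to 59.7 CPM in CX (median 32.2 CPM). The CB and HIP ranges overlapped, and both lay above CX. Its log2 difference of CB from HIP was −0.56 ± 0.24 (SE), adjusted p = 0.0749 (edgeR's quasi-likelihood test), which was below the 2-fold limit, and that of CB from CX was 2.15 ± 0.25. Without the S3 mice these differences were −0.17 (adjusted p = 0.287, edgeR's quasi-likelihood test) and 2.61. At P7 the CB libraries ran from 522 to 631 CPM and stood above HIP (65.7 to 95.8 CPM) by 2.96 ± 0.10 and above CX (12.9 to 21.5 CPM) by 5.15 ± 0.11 on the log2 scale. In adult WT mice CB held 434, 436, 373, 415 and 408 CPM, HIP 26.6, 28.4, 28.9, 24.2 and 25.8 CPM, and CX 10.4, 11.3, 11.5, 11.2 and 11.3 CPM. The regions no longer overlapped at these ages.

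Zic1 was abundant in CB and readily detected in the forebrain. It ran from 526 to 810 CPM in E17.5 WT CB (median 654 CPM), from 77.9 to 268 CPM in HIP and from 9.47 to 72.1 CPM in CX. The highest HIP library was the one that stood apart, and even it lay below all CB libraries. Without that mouse the log2 difference of CB from HIP was 2.56 for Zic1, 1.95 for Zic2, 3.15 for Lhx1 and −0.73 for Neurod1. The log2 difference of CB from CX was 4.18 ± 0.44 at E17.5, 6.43 ± 0.20 at P7 and 6.47 ± 0.30 in adults, and that from HIP was 2.36 ± 0.40, 5.62 ± 0.20 and 5.89 ± 0.30. In adult WT CB the libraries held 984, 1016, 802, 998 and 986 CPM, against 9.61, 11.7, 11.4, 10.5 and 10.7 CPM in CX. Adult HIP was uneven, with 9.01, 11.2, 20.3, 36.1 and 11.9 CPM.

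Zic2 followed the same order at a lower level. Its WT CB range was 89.8 to 150.1 CPM at E17.5, 182 to 233 CPM at P7 and 150.2 to 162 CPM in adults, and its CX values stayed between 4.70 and 10.9 CPM at all 3 periods. CB was higher than CX by 4.04 ± 0.27, 4.98 ± 0.10 and 4.73 ± 0.18 and higher than HIP by 1.86 ± 0.24, 4.30 ± 0.09 and 4.53 ± 0.18 on the log2 scale. The neighbouring genes ranked their regions in the same way. Zic4, next to Zic1, had WT means of 115 ± 17.3 CPM in E17.5 CB, 34.6 ± 37.2 CPM in HIP and 6.88 ± 5.39 CPM in CX (n = 6), and Zic5, next to Zic2, had 64.7 ± 16, 24.2 ± 12 and 4.79 ± 2.35 CPM. The HIP mean of Zic4 turned on WT replicate 6, which held 110.1 CPM where the other 5 WT libraries held 13.5 to 24.8 CPM, and without it the mean was 19.5 ± 4.38 CPM (20.6 ± 9.01 CPM for Zic5, n = 5). In that library the marker sums of dentate granule neurons (198 CPM, the other 11 libraries 47.0 to 173 CPM) and of cerebellar GABAergic interneuron precursors (122 CPM, others 17.2 to 57.1 CPM) were also the highest, and their part in its values was not tested.

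Of the GABAergic lineage factors, Ptf1a and Pax2 were low in CB and lower elsewhere. Ptf1a ran from 2.07 to 3.11 CPM in E17.5 WT CB (median 2.41 CPM), with 543 counts there and 0 counts in CX and in HIP, which puts CB at least 151-fold above CX and at least 133-fold above HIP. At P7 it ran from 1.60 to 2.81 CPM in CB, with 0 counts in CX and 3 in HIP. In adult WT mice only 5 counts were found in CB, 1 in CX and 0 in HIP. The ratio of adult CB to CX was 4.87 with a counting interval from 0.545 to 230.5, so a regional difference was not detectable at this depth.

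Pax2 ran from 4.23 to 8.01 CPM in E17.5 WT CB (median 5.05 CPM) and from 2.37 to 3.57 CPM at P7 (median 2.90 CPM). The 6 forebrain groups of WT mice held between 0 and 5 counts each. Adult WT CB held 0.605, 0.761, 3.91, 1.55 and 0.989 CPM, of which the highest is the library that stood apart. CB was 60.2-fold higher than CX in adults (95% counting interval 23.2 to 223), and 40.2-fold higher without that library (interval 15.4 to 149.7).

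Lhx1 was the GABAergic factor with the most reads. It ran from 25.4 to 61.0 CPM in E17.5 WT CB (median 33.7 CPM), from 2.63 to 7.33 CPM in HIP and from 0.35 to 1.36 CPM in CX. At P7 it ran from 30.9 to 37.1 CPM in CB, from 0.619 to 0.775 CPM in HIP and from 0.145 to 0.353 CPM in CX. The log2 difference of CB from HIP was 2.94 ± 0.21 at E17.5, 5.64 ± 0.10 at P7 and 7.34 ± 0.16 in adults. In adult CX no read was counted in 5 WT libraries, against 4700 counts in CB, a ratio of at least 1527. No library of CB overlapped a forebrain library at any period.

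Of the engrailed genes, En1 was the lower. It ran from 10.5 to 15.6 CPM in E17.5 WT CB (median 12.6 CPM) and from 3.37 to 11.5 CPM at P7 (median 7.34 CPM), and the adult CB libraries held 1.60, 2.97, 2.70, 3.71 and 3.39 CPM. No forebrain library of a WT mouse exceeded 0.168 CPM. En2 ran from 68.0 to 107 CPM in E17.5 WT CB, from 81.0 to 106 CPM at P7 and from 126 to 152 CPM in adults, against at most 0.629 CPM in any WT forebrain library. The log2 difference of CB from CX was 8.42 ± 0.39 for En1 and 10.04 ± 0.22 for En2 at E17.5, and 7.59 ± 0.37 and 11.81 ± 0.14 at P7.

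**Figure D2:**
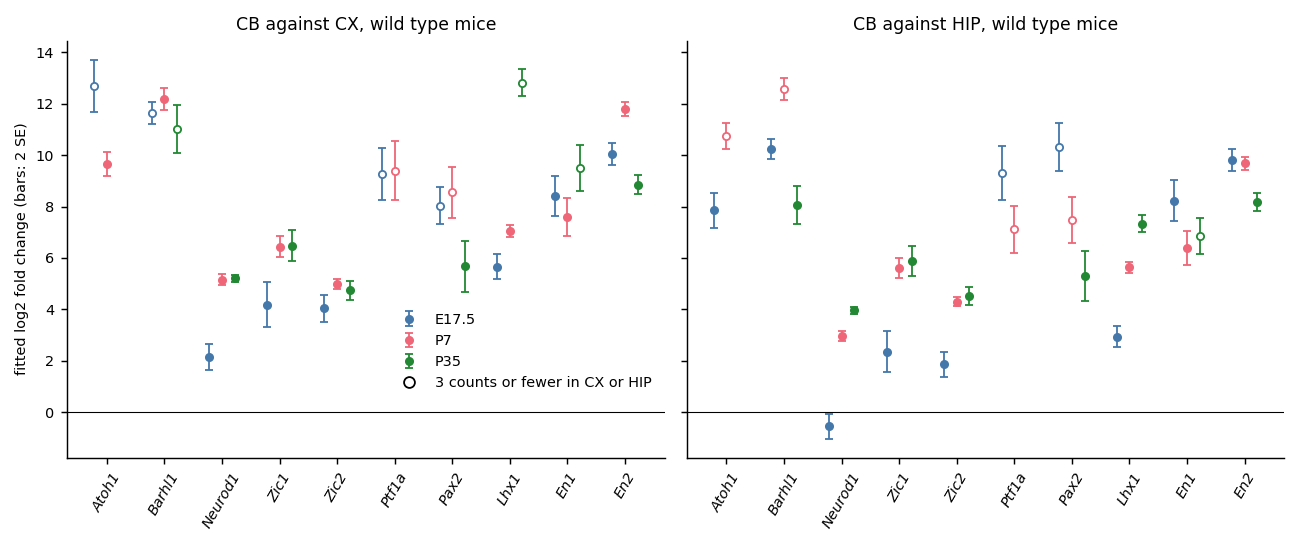
Fitted log2 fold change of CB over CX (left) and over HIP (right) in WT mice for each gene (horizontal axis), by period (colour), with bars of 2 SE. Open points mark genes with 3 counts or fewer in the forebrain group, where the fitted value depends on the default prior count of edgeR's fit. Neurod1 against HIP at E17.5 is the only point below 0, at −0.56.

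The second comparison followed the genes through development within each region in WT mice. In CB, Neurod1 was the only one of the 10 called between E17.5 and P7 (10% of all genes tested were called higher and 10.1% lower). From P7 to the adult period Atoh1, Ptf1a, Barhl1 and En1 were called lower and none was called higher, where 16.6% of all genes were called higher and 17.7% lower. The 10 genes thus did not share a course.

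Atoh1 passed from a median of 26 CPM at E17.5 to 22 CPM at P7, a log2 change of −0.35 ± 0.11 with an adjusted p of 0.0123 (edgeR's quasi-likelihood test) that lay below the fold limit. It then went from 4582 counts over the 6 P7 libraries to 0 counts in all 5 adult libraries, and was thus at least 1178-fold lower in adults. Ptf1a changed by −0.14 ± 0.16 from E17.5 to P7 (adjusted p = 0.469). It fell from 496 to 5 counts from P7 to adults, a ratio of 76.5 (95% counting interval 32.6 to 237), with a fitted log2 change of −6.08 ± 0.31. The rhombic lip and the ventricular zone determinants therefore both reached the lower end of detection in adult CB.

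Barhl1 first rose by less than the fold limit, by 0.63 ± 0.10 on the log2 scale (adjusted p = 1.28e-05, edgeR's quasi-likelihood test), and then fell by 3.60 ± 0.12 (adjusted p = 2.40e-15). No library overlapped between P7 and adult CB. En1 declined at both steps, by 0.70 ± 0.23 (adjusted p = 0.0127), short of 2-fold, and then by 1.43 ± 0.26 (adjusted p = 7.20e-05, both by edgeR's quasi-likelihood test). Its libraries overlapped at both steps, with 3.37 to 11.5 CPM at P7 and 1.60 to 3.71 CPM in adults. In adult CB the mean of Barhl1 was 12.8% and that of En1 22.8% of the E17.5 mean.

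Neurod1 rose by 2.00 ± 0.13 on the log2 scale between E17.5 and P7 (adjusted p = 4.19e-10, edgeR's quasi-likelihood test), with every P7 library above every E17.5 library. Without the S3 mice this rise was 1.80. It was lower again in adults by 0.49 ± 0.14, below the fold limit, at a mean that was 285% of that at E17.5. Zic1 and Zic2 passed the test but not the fold limit at both steps, with log2 changes of 0.91 ± 0.10 and 0.81 ± 0.11 to P7 and of −0.35 ± 0.10 and −0.42 ± 0.11 to adults. Their P7 libraries lay above all E17.5 and all adult libraries. The adult means were 147% and 131% of those at E17.5.

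En2 was the gene that was highest in adults. It changed by 0.13 ± 0.09 to P7 (adjusted p = 0.240) and by 0.61 ± 0.10 to adults (adjusted p = 1.35e-05, below the fold limit, edgeR's quasi-likelihood test), and all 5 adult libraries lay above all P7 libraries. Lhx1 passed neither step, with log2 changes of −0.21 ± 0.25 (adjusted p = 0.476) and −0.16 ± 0.26 (adjusted p = 0.581). Without the S3 mice the first turned to 0.08 (adjusted p = 0.800), and without adult WT replicate 3 the second was −0.57 with an adjusted p of 0.0126, past the test and short of 2-fold (edgeR's quasi-likelihood test). Pax2 passed both tests below the fold limit, with −0.86 ± 0.30 and −0.93 ± 0.34. The second value turns on the same adult library: without it the change of Pax2 was −1.57 and passed both limits. En2 passed the first step without the S3 mice, with 0.24 (adjusted p = 0.0245), also short of 2-fold.

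**Figure D3:**
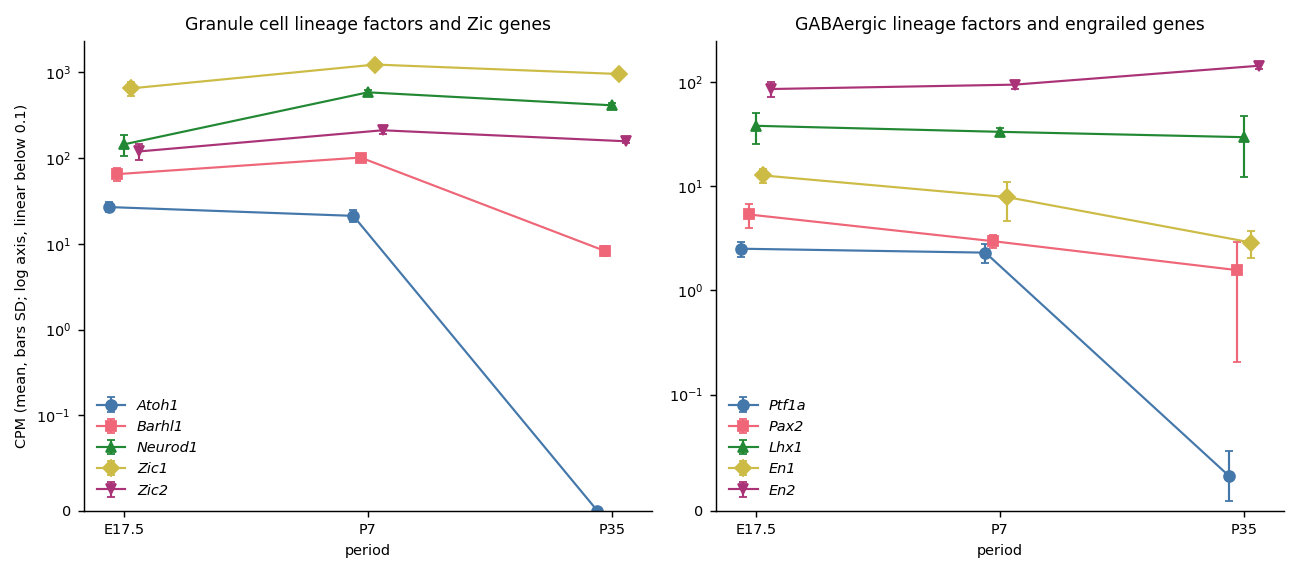
Mean CPM of each gene in WT CB by period (error bars SD, 6 libraries at E17.5 and P7 and 5 in adults), on a log axis that is linear below 0.1 CPM. Atoh1 and Ptf1a drop to or near 0 in adults, Barhl1 and En1 decline, Neurod1 climbs to P7, and En2 is highest in adults.

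In the forebrain regions only Zic1, Zic2, Neurod1 and Lhx1 had enough reads for this test. From E17.5 to P7 in CX, Zic1 fell by 1.47 ± 0.38, Neurod1 by 1.08 ± 0.19 and Lhx1 by 1.62 ± 0.36 on the log2 scale (3 of 4 tested called lower, with 22.9% of all genes called higher and 14.5% lower). The call of Neurod1 turned on E17.5 CX WT replicate 4, without which it was −0.86, under the fold limit. Zic2 changed by −0.18 ± 0.20. In HIP all 4 fell, Zic1 by 2.38 ± 0.33, Zic2 by 1.61 ± 0.22, Neurod1 by 1.49 ± 0.14 and Lhx1 by 2.86 ± 0.28 (17.8% of all genes higher, 13.1% lower). Neurod1 thus moved downwards in both forebrain regions over the days in which it rose in CB.

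From P7 to adults in CX, Lhx1 was called lower, from 54 counts to 0 and so at least 13.7-fold, while the other 3 were not called (10.3% of all genes higher, 11.6% lower). In HIP, Neurod1 fell by 1.55 ± 0.15 and Lhx1 by 1.91 ± 0.38 (7.95% of all genes higher, 10.4% lower). The changes of Zic1 and Zic2 in HIP were −0.55 ± 0.34 and −0.64 ± 0.23, neither of them called, whereas in Cul3+/- mice that of Zic1 was −1.10 and was called (adjusted p = 0.0233, edgeR's quasi-likelihood test). Genes under the low-count filter in the forebrain had 20 counts or fewer per WT group, with the exception of En2, which reached 25 counts in P7 HIP, 49 in adult CX and 71 in adult HIP.

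Whether the change between periods differed between CB and CX was tested in 1 model over the WT libraries of all regions and periods, with mouse as a block, and a gene was called at an adjusted p of 0.1 or less without a fold limit. For P7 against E17.5, 6 genes were called, where 69.6% of all genes tested were. The difference of log2 changes, CB minus CX, was 3.02 ± 0.24 for Neurod1 (adjusted p = 1.04e-12, edgeR's quasi-likelihood test), 2.26 ± 0.44 for Zic1, 1.41 ± 0.30 for Lhx1 and 0.96 ± 0.27 for Zic2. The other called genes, En2 (1.75 ± 0.66) and Atoh1 (−3.14 ± 1.31), had 14 and 5 and 0 and 5 counts in CX at E17.5 and P7. The call of Atoh1 was lost with DESeq2 (−1.95, adjusted p = 0.270) and in Cul3+/- mice (−1.97, adjusted p = 0.147). For adults against P7, 4 genes were called, where 61% of all genes were: Lhx1 (5.86 ± 0.91), En2 (−2.89 ± 0.52), Pax2 (−2.77 ± 1.21) and Ptf1a (−7.50 ± 2.56). In CX these rested on 54 and 0 counts of Lhx1, 5 and 49 of En2, 1 and 4 of Pax2 and 0 and 1 of Ptf1a. Their fitted sizes thus depend on the default prior count of edgeR's fit or on very few reads. The call of Ptf1a was lost in Cul3+/- mice (−4.51, adjusted p = 0.911) and without adult WT replicate 5, and that of Pax2 was lost without adult WT replicate 2 and turned to 0.43 in Cul3+/- mice, uncalled. Atoh1, uncalled in WT mice by edgeR's quasi-likelihood test, was called with DESeq2 (−10.28, adjusted p = 1.81e-07) and in Cul3+/- mice (−10.69, adjusted p = 0.00899). With so large a share of all genes called, these counts set the 10 genes no further apart from the rest.

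Other genes of the same lineages were read from 4 lists written from general knowledge. Of 22 further rhombic lip and granule cell lineage factors, 11 were higher and 5 lower in WT CB than CX at E17.5, 17 higher and 3 lower at P7, and 12 higher and 5 lower in adults. The median log2 differences were 1.49, 3.59 and 1.73, beside −0.02, 0.06 and 0.04 over all genes. At P7 the largest were Nhlh1 (7.98 ± 0.15), Barhl2 (6.83 ± 0.36) and Nhlh2 (6.72 ± 0.12), transcription factors of newly formed neurons. Against HIP the list was balanced at E17.5, with 7 higher and 7 lower, among them Tbr1, a factor of glutamatergic forebrain neurons, which was lower in CB by −3.71 ± 0.37. From P7 to adult CB 15 of the 22 fell and 1 rose, with a median of −1.29, and the deepest falls were those of Nhlh1 (−9.63 ± 0.25), Insm1 (−8.50 ± 0.17) and Mycn (−4.58 ± 0.11), genes active in precursors and young neurons.

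Of 16 ventricular zone and GABAergic lineage factors, 15 were tested at E17.5, and 10 were higher and 2 lower in CB than in CX. The largest differences were those of Skor2, a corepressor of Purkinje cells (12.62 ± 0.29), Prdm13, a regulator of GABAergic fate (11.27 ± 0.40), and Tfap2b (10.56 ± 0.33). Skor2 had no counts in any E17.5 HIP library, and the CX counts of these genes are not given here. Fitted sizes this large can rest on very few reads in 1 group, and so can their SE. From P7 to adult CB 7 fell and 1 rose of 15 tested, with Prdm13 changing by −11.98 ± 0.40, a size under the same limit. Of 11 isthmic organizer genes, 6 were higher in E17.5 CB than in CX and none lower of 8 tested, and in CB 5 fell and 1 rose of 9 from E17.5 to P7. Gbx2, which positions the organizer, fell by 4.53 ± 0.32, and Hes3, a bHLH repressor gene of the same region, rose by 6.36 ± 0.33. All 5 mature granule neuron genes rose from P7 to adults, with Grin2c (5.28 ± 0.21), Cbln3 (5.17 ± 0.23) and Gabra6 (4.46 ± 0.19) the largest, all called by edgeR's quasi-likelihood test. The shares of all genes called in these comparisons are those given above.

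The genes closest to each member in pattern were sought by the correlation of mean log2 CPM over the 9 WT groups of period and region, among 14580 protein-coding genes. These groups share mice, and 9 points dominated by the split of CB from forebrain give high values easily, so r is a description only. Atoh1 was closest to Hsd11b2 (r = 0.995), Prdm13 (r = 0.992) and Ptf1a (r = 0.987), and Ptf1a to Prdm13 (r = 0.994), Atoh1 and Hsd11b2 (r = 0.972). Barhl1 was closest to Pax3 (r = 0.993), Tlx3 (r = 0.992) and Ebf1 (r = 0.991), En1 to Skor1 (r = 0.996), Pax3 (r = 0.994) and Tlx3 (r = 0.992), and Pax2 to Pax3 (r = 0.995), En1 (r = 0.990) and Tfap2a (r = 0.990). Zic1 and Zic2 were close to each other (r = 0.991), Zic1 then to Zfp521 (r = 0.989) and Fam181b (r = 0.985), and Zic2 to its chromosomal neighbours Gm10837 (r = 0.993) and Zic5 (r = 0.985). En2 was closest to Arhgef33 (r = 0.981), the Purkinje cell gene Pcp2 (r = 0.981) and Adra2b (r = 0.977), Lhx1 to Chd7 (r = 0.981), Zic1 (r = 0.978) and Barhl2 (r = 0.975), and Neurod1 to Ccnjl (r = 0.973), Tbc1d4 (r = 0.973) and Srprb (r = 0.964).

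Within E17.5 CB the libraries differed by the first part of the mouse name, whose meaning the labels do not give. Neurod1 in the 4 S3 libraries was between 89.1 and 103 CPM, and in the 8 libraries of S2 and S4 mice between 135 and 194 CPM. Zic1 (452 to 533 against 595 to 810 CPM), Zic2 (76.9 to 93.4 against 113 to 150.1 CPM) and Barhl1 (35 to 57.9 against 60.1 to 78.4 CPM) also lay below all other libraries. The ratios of the means, S3 over the rest, were 0.581 for Neurod1, 0.666 for Barhl1, 0.685 for Zic2 and 0.721 for Zic1. Over all 14728 genes at a mean of 1 CPM or more, 5.89% had the 4 S3 libraries below all other 8 and 5.27% had them above.

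Lhx1 ran the other way, with 41.5 to 61.0 CPM in S3 libraries and 25.4 to 47.4 CPM in the others (ratio 1.53), and so did En2 (ratio 1.25), both with overlap. Atoh1 (ratio 0.808), Ptf1a (0.847), En1 (1.16) and Pax2 (1.2) overlapped as well. The 4 marker sums of cerebellar cell types were lower in the S3 libraries without overlap, as Neurod1, Zic1, Zic2 and Barhl1 were. The granule cell precursor sum was 414 to 470 CPM (6 genes; 546 to 611 CPM in the others), the granule neuron sum 278 to 313 CPM (6 genes; 405 to 503 CPM), the Purkinje cell sum 585 to 724 CPM (6 genes; 779 to 1036 CPM) and the GABAergic interneuron precursor sum 111 to 123 CPM (3 genes; 124 to 146 CPM). The Purkinje cell sum thus lay opposite to Lhx1. The first of these lists includes Atoh1 and Barhl1 and the second Neurod1, and the part of these cell types in the difference was not tested. Each genotype had 2 mice of each name, so the name does not separate the genotypes.

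**Figure D4:**
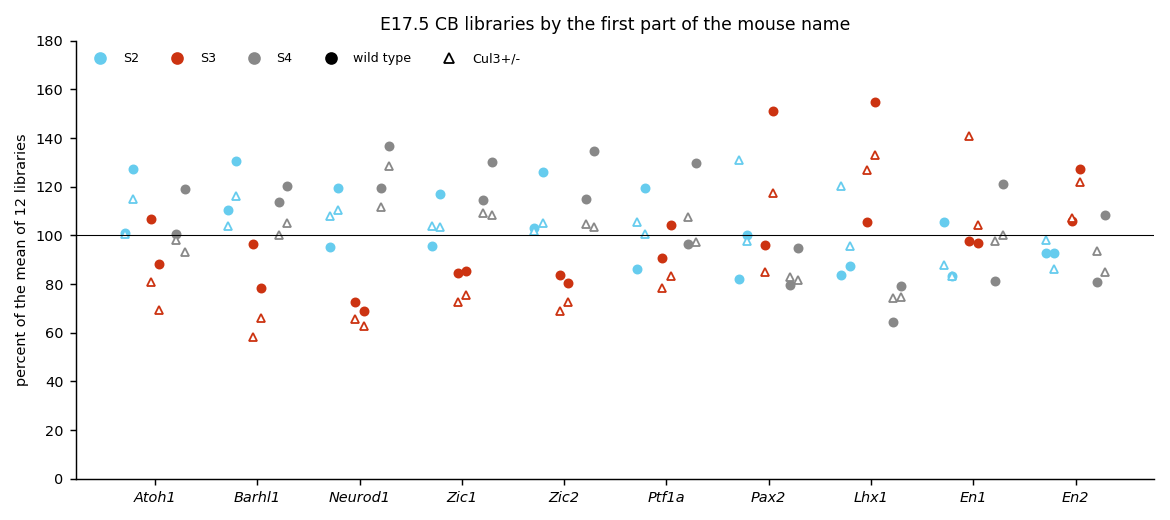
Level of each gene in the 12 E17.5 CB libraries as percent of their mean (vertical axis), by the first part of the mouse name (colour) and genotype (filled circles, WT, and open triangles, Cul3+/-). The red S3 points lie below all others for Neurod1, Zic1, Zic2 and Barhl1 and mostly above them for Lhx1, where the means stand at a ratio of 1.53.

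The last comparison, that of the genotypes, was the purpose of the study. None of the 10 genes was called between Cul3+/- and WT mice in any of the 9 sets of libraries, each 1 region at 1 period, by edgeR's quasi-likelihood test at an adjusted p of 0.1. The shares of all genes called were 0.00603% in E17.5 CX, 0.00586% in E17.5 HIP, 0.00568% in E17.5 CB, 0.00566% in P7 CX, 0.00563% in P7 HIP, 0.0057% in P7 CB, 0.00569% in adult CX, 0.00584% in adult HIP and 0.00584% in adult CB. In each case the called gene was Cul3. The study itself reported many differentially expressed genes at an FDR of 0.1, with sex and RUVs factors of unwanted variation in its model. The model used here held neither. With 5 RUVs factors the share of all genes called ran from 0.0121% in E17.5 CX to 2.76% in adult HIP. The 51 tests gave log2 fold changes between −0.73 and 0.57 with standard errors between 0.05 and 0.45, and the smallest adjusted p was 0.344. In all 47 groups with a mean of 1 CPM or more the ranges of the genotypes overlapped. At an unadjusted limit of 0.05, 3 of the 51 passed (5.88%): Lhx1 in P7 HIP, Pax2 in P7 CB and Lhx1 in adult CB. The share of all genes below that limit ran from 1.67% to 14.4% over the 9 sets. Among the alternatives, RUVs with 5 factors called 1 of the 4 members tested in adult HIP, where it called 2.76% of all genes. This was Zic1, with a log2 fold change of −0.27 and an adjusted p of 0.00876, where the other 18 alternatives gave adjusted p values from 0.831 to 1.

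In E17.5 CB, Atoh1 ran from 22.1 to 31.9 CPM in WT (median 26 CPM) and from 17.3 to 28.8 CPM in Cul3+/- mice (median 24 CPM), with a log2 fold change of −0.19 and an interval of ± 2 SE from −0.42 to 0.04. At P7 the WT range was 15.7 to 25.8 CPM (median 22 CPM) and the Cul3+/- range 16.1 to 20.1 CPM (median 18.3 CPM), and the log2 fold change was −0.20 with an interval from −0.39 to −0.0039. The Cul3+/- libraries lay within the WT range at P7. Adult CB held 0 counts in both genotypes. The adjusted p values were 0.988 and 0.994 (edgeR's quasi-likelihood test).

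In P7 CB, the period at which Zic1, Zic2, Barhl1 and Neurod1 had their highest CB means, Zic1 ran from 1191 to 1300.2 CPM in WT and from 1008 to 1310.2 CPM in Cul3+/- mice, and its log2 fold change was −0.10 with an interval from −0.21 to 0.02. For Neurod1 the ranges were 522 to 631 and 452 to 632 CPM, with −0.08 (−0.23 to 0.06), for Barhl1 92.4 to 108 and 80.6 to 103 CPM, with −0.09 (−0.20 to 0.02), and for Zic2 182 to 233 and 152 to 230.0 CPM, with −0.13 (−0.32 to 0.07). The medians of these 4 genes were lower in Cul3+/- mice and the ranges overlapped throughout. A change of 2-fold lies outside each of these intervals. Over CB, 23 of 28 log2 fold changes were below 0, 8 of 10 at E17.5, 7 of 10 at P7 and 8 of 8 in adults, but the genes share libraries and the counts are no test.

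The choroid plexus sum (5 genes: Ttr, Folr1, Aqp1, Kl and Kcnj13) varied widely between libraries, and no genotype test was run on it. In P7 CB its median was 5.64 CPM in WT (2.66 to 1468 CPM) and 1446 CPM in Cul3+/- mice (3.12 to 2686 CPM). In E17.5 CB its median was 4.32 CPM in WT (2.70 to 45.3 CPM) and 24.6 CPM in Cul3+/- mice (4.17 to 257 CPM), and in adult CB 11.1 CPM (3.52 to 2982 CPM) and 495 CPM (5.08 to 2030 CPM). The medians were higher in Cul3+/- mice at all 3 periods and the ranges overlapped. Its part in the CB values was not tested. In P7 CB meninges markers (9 genes) ran from 238 to 378 CPM in WT and from 252 to 608 CPM in Cul3+/- mice. None of the 10 genes is in either list.

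The widest genotype differences were those of Pax2 and Lhx1 in adult CB, and they came from WT replicate 3. Lhx1 was at 20.7, 19.2, 59.0, 29.8 and 18.2 CPM in WT and at 20.7, 19.2, 18.8, 17.9 and 18.3 CPM in Cul3+/- mice. Its log2 fold change was −0.65 (interval −1.22 to −0.08, adjusted p = 0.344 by edgeR's quasi-likelihood test) and became −0.24 without that library. Pax2 was at 0.605, 0.761, 3.91, 1.55 and 0.989 CPM in WT and at 0.686, 1.06, 1.02, 0.902 and 1.04 CPM in Cul3+/- mice. Its log2 fold change of −0.73 became −0.08. The same library was high for the thalamus (770 CPM, others 590.1 to 739 CPM), Cajal-Retzius (755 CPM, others 529 to 675 CPM) and dentate granule neuron (82.4 CPM, others 42.6 to 61.5 CPM) marker sums. It was the lowest for the meninges sum (143 CPM, others 152 to 194 CPM) and the choroid plexus sum (3.52 CPM, others 5.08 to 2982 CPM). In adult WT mice the median thalamus sum was 681 CPM in CB, 166 CPM in CX and 96.9 CPM in HIP. For the Cajal-Retzius sum it was 599, 123 and 111 CPM in the same order. Both sums were thus higher in CB than in the forebrain regions, so neither singles out thalamic or Cajal-Retzius cells in CB. The part of any cell type in the values of this library was not tested.

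Differences above WT were seen for Lhx1 in P7 HIP, with 0.619 to 0.775 CPM in WT and 0.760 to 1.76 CPM in Cul3+/- mice (log2 fold change 0.57, interval 0.15 to 1.0, adjusted p = 0.833), and for Pax2 in P7 CB, with 2.37 to 3.57 CPM and 2.93 to 3.79 CPM (0.25, interval 0.04 to 0.47, adjusted p = 0.990), both by edgeR's quasi-likelihood test. The ranges overlapped in both cases. Lhx1 in P7 HIP rested on 148 counts over 6 WT libraries and 218 over 6 Cul3+/- libraries. In E17.5 CB, taking the first part of the mouse name as a block, chosen after seeing the data, lowered the smallest adjusted p of the 10 genes to 0.525 and called none of them. Under this block 4 of the 10 genes, Atoh1, Zic1, Zic2 and Barhl1, had an unadjusted p under 0.05 (8.05% of all genes), against 0 of 10 without it (3.5% of all genes). Their means were lower in Cul3+/- mice within each of the 3 names, by log2 differences from −0.38 to −0.08 for Atoh1, from −0.20 to −0.04 for Zic1, from −0.26 to −0.15 for Zic2 and from −0.49 to −0.13 for Barhl1, each with 2 mice per genotype. These 4 genes were picked by the blocked fit of the same libraries, so the shared direction is no further test. En2 was also lower within each name, and the signs were mixed for En1, Neurod1, Ptf1a, Lhx1 and Pax2.

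Whether the genotype difference varied between regions was tested within each period, and whether it varied between periods was tested in CB. No member was called for region at E17.5 (0% of all genes tested were called), at P7 (0%) or in adults (0.00525%), nor for period in CB (0%). By edgeR's quasi-likelihood test without adjustment, 1 of 10 members at E17.5, 2 of 10 at P7, 0 of 8 in adults and 0 of 10 across periods had a p under 0.05. The shares of all genes were 2.5%, 4.57%, 15.8% and 13.2% in the same order. In adults the log2 fold change in CB minus that in CX was between −0.25 and 0.05 for Zic1, Zic2, En1, En2 and Neurod1. It was −1.55 for Barhl1, −2.01 for Lhx1 and 2.21 for Pax2, which had 0, 0 and 4 counts in WT CX.

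**Figure D5:**
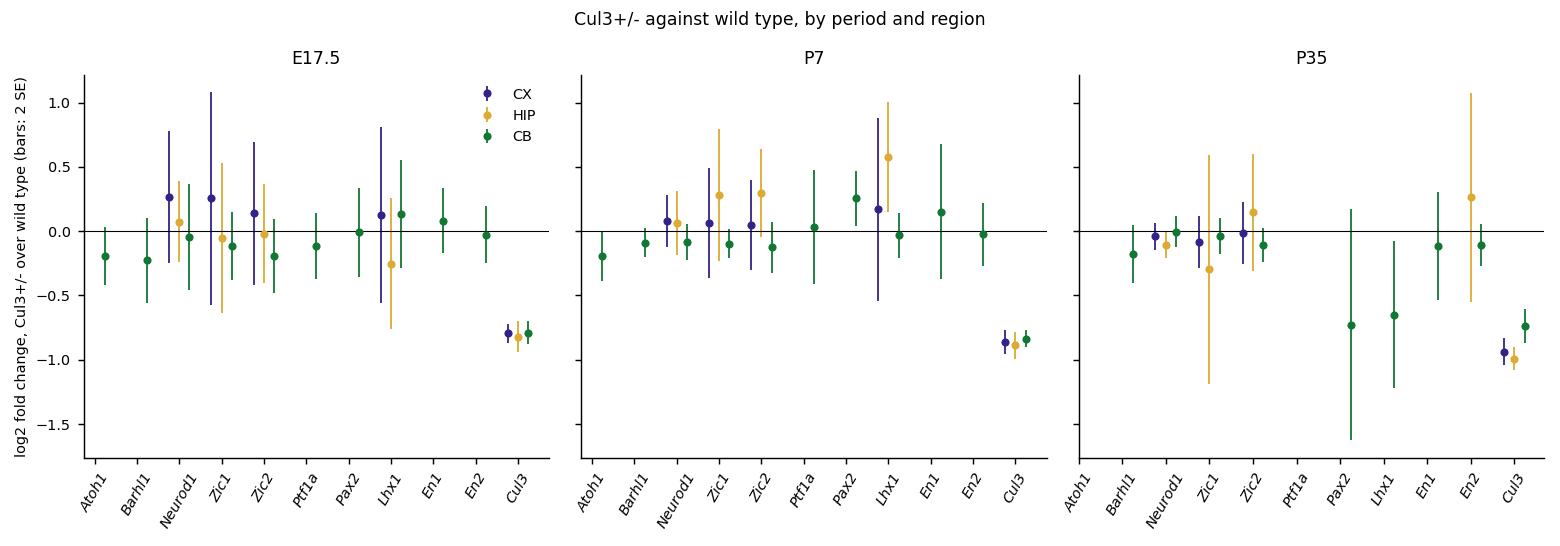
Fitted log2 fold change of Cul3+/- over WT mice for each gene and for Cul3 (horizontal axis), by region (colour) in the 3 periods (panels), with bars of 2 SE. The 10 genes lie between −0.73 and 0.57, and the only gene set off from 0 in every region and period is Cul3, at −0.99 to −0.74.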

How the data were processed

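The authors trimmed paired-end reads with cutadapt 1.14, aligned them with STAR 2.5.3a to mouse genome GRCm38 and ran RSEM 1.3 on the alignments, whose expected counts were deposited unnormalized. Of these values 5.76% were not whole, and all were rounded. Symbols were matched for 53274 identifiers. Libraries were TMM-normalized after filterByExpr (minimum count 10, minimum total 15) and tested in edgeR 4.0.16 (R 4.3.3) by the quasi-likelihood test with Benjamini-Hochberg adjustment over all genes tested. Calls were made at 0.1, and between regions and periods also at a log2 change of 1. SE is the log2 fold change divided by the root of F. Log2 CPM used a prior count of 2, and the fitted fold changes kept edgeR's own default. Alternatives were upper-quartile normalization, DESeq2 1.42.0, the likelihood ratio test, RUVs with 3 or 5 factors, no low-count filter, a replicate block, Cul3+/- in place of WT mice, and leaving out each library. After the data were seen, a block by mouse name at E17.5, the omission of the E17.5 S3 mice and the omission of adult WT replicate 3 were added. The scripts were tested on simulated counts. The 10 genes and the lists were chosen with earlier results of these data known. The text names the 10 genes in every test, Cul3, Zic4 and Zic5, the 3 genes most like each member, and the genes of each list with the largest called changes. Replicate numbers are those of the labels within each region, and a mouse can carry different numbers in different regions. Where a mouse was left out of all its regions, the number is that of its CB library. Deviations of same-numbered WT and Cul3+/- libraries correlated above 0.1 in all 6 pairs in E17.5 CX (0.113 to 0.759). The same held for 5 of 6 pairs in E17.5 HIP, E17.5 CB and P7 CX, 4 of 6 in P7 CB and 1 of 6 in P7 HIP. In adults it held for 4 of 5 pairs in CX and in CB and 3 of 5 in HIP. The main genotype tests used no block for these pairs. Of 240 replicate pairs, 0 were identical. The mice are separate animals, so p-values of tests without a mouse block measure the spread between mice within a group. Those of tests with mouse as a block measure the spread left between regions of the same mice. Library totals between 15126114 and 44411282 expected counts set the precision of low genes. Marker lists kept as dissection checks are not reported here.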

Additional observations from a re-analysis of the deposited data

Results flagged for a closer look

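In 9 of 94 groups of 5 or 6 libraries, the highest or lowest library lay far from the others by Dixon's criterion, which chance alone meets in about 1 in 20 groups. Of these, 4 were the same library, adult CB of WT replicate 3, with Lhx1 at 59 CPM, Pax2 at 3.91 CPM and Barhl1 at 10.2 CPM as the highest and Zic1 at 802 CPM as the lowest of their groups. The others were Zic1 in adult HIP of Cul3+/- replicate 6 (34.3 CPM) and in P7 CX of WT replicate 1 (28.7 CPM), En1 in E17.5 CB of Cul3+/- replicate 3 (18.2 CPM), Pax2 in E17.5 CB of WT replicate 4 (8.01 CPM) and Lhx1 in P7 HIP of Cul3+/- replicate 5 (1.76 CPM).

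The change between periods differed between CB and CX for several genes by the interaction test of edgeR. From E17.5 to P7 the difference of log2 changes was 3.02 for Neurod1, 2.26 for Zic1, 1.41 for Lhx1, 0.96 for Zic2, 1.75 for En2 and −3.14 for Atoh1. From P7 to adults it was 5.86 for Lhx1, −2.89 for En2, −2.77 for Pax2 and −7.5 for Ptf1a. Those of Atoh1, En2, Pax2 and Ptf1a rested on 49 counts or fewer in each CX group.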

How the results depend on the processing

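Of 521 counts of called genes refitted under the alternatives, 517 stayed within 1.5 times the reported count, and the median of all genes shifted by at most 0.0672 (log2) with the scaling. Of the 521, 261 were counts of genotype tests, interactions included. Among these 260 were 0 beside a reported 0, which was scored as unchanged. With RUVs and 5 factors the genotype count in adult HIP went from 0 to 1 (Zic1). With no low-count filter, P7 against E17.5 in CX went from 3 to 5 (Atoh1 and En2 added), adults against P7 in CX from 1 to 4 (Atoh1, En1 and En2 added) and in HIP from 2 to 4 (En1 and En2 added), through genes with few counts. Leaving out 1 library gave 2 to 3 genes for P7 against E17.5 in CX, 2 to 3 for adults against P7 in HIP, 4 to 5 in CB, and 3 to 4 for region by period from P7 to adults. Without E17.5 CX WT replicate 4, Neurod1 changed by −0.86 in CX, short of the fold limit. Pax2, adults against P7 in CB, passed it under the replicate block (−1.05), in Cul3+/- mice (−1.86) and without adult WT replicate 3 (−1.57). The replicate block changed no genotype call of the 10 genes. Signs turned in Cul3+/- mice for Ptf1a, P7 against E17.5 in CB (0.0067), and for region by period from E17.5 to P7 for Barhl1 (−0.40) and Pax2 (−2.90, called) and from P7 to adults for Pax2 (0.43), with DESeq2 for Ptf1a from E17.5 to P7 (0.10), and without the E17.5 S3 mice for Lhx1, P7 against E17.5 in CB (0.080), and for Barhl1 in region by period from E17.5 to P7 (−0.37). Leaving out 1 mouse turned the differences from P7 to adults of Zic1 (−0.16 to −0.031) and Neurod1 (−0.022 to −0.0031), none of them called. The region by period call of Atoh1 from E17.5 to P7 was lost with DESeq2 (−1.95) and in Cul3+/- mice (−1.97), where En1 was called (−3.59). From P7 to adults the call of Ptf1a was lost in Cul3+/- mice (−4.51) and without adult WT replicate 5 (−6.08) and that of Pax2 without replicate 2 (−1.27), while Atoh1 was called with DESeq2 (−10.28) and in Cul3+/- mice (−10.69). In Cul3+/- mice Zic1 was also called in HIP from P7 to adults (−1.10). The causes were not tested. Depth limits Ptf1a and Atoh1 in adults and all genes but Zic1, Zic2, Neurod1 and Lhx1 in the forebrain.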
